A study of Homo sapiens with 12 samples.

Results

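SR proteins and hnRNP proteins are the main families of RNA-binding proteins that choose splice sites in human cells. SR proteins, encoded by the SRSF genes, carry RNA recognition motifs and an arginine- and serine-rich domain, bind exonic enhancers and help the U1 and U2 snRNPs recognise exons. The hnRNP proteins coat nascent transcripts, and many of them bind silencers and oppose SR proteins at the same exons. Members of both families control their own RNA through poison exons that send a transcript to nonsense-mediated decay, which counts per gene do not resolve. HNRNPC and HNRNPA2B1 are linked to N6-methyladenosine (m6A): HNRNPC binds uridine tracts that m6A can open, and HNRNPA2B1 has been described as a reader of m6A-marked RNA. The genes described here were taken by symbol, as every counted gene named SRSF followed by a number or with a symbol that starts with HNRNP. This rule gave 39 of the 19923 counted genes, 12 SRSF and 27 HNRNP. Among them are the copies HNRNPA1L2, HNRNPA1P48 and HNRNPCL1 to HNRNPCL4 and the readthrough gene HNRNPUL2-BSCL2.

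Polyadenylated RNA was sequenced from 2 established human neuroblastoma lines, SK-N-BE2 and NGP, both labelled as wild type and MYCN-amplified. STM2457 is a small-molecule inhibitor of METTL3, the catalytic subunit of the m6A writer complex. SK-N-BE2 cells received 12 µM and NGP cells 1 µM STM2457 for 6 days, and the controls of each line received DMSO, with 3 libraries in each of the 4 groups. Line, dose and sequencing run differed together and cannot be told apart. The labels do not say whether replicates came from separate cultures, so p-values measure the spread between these samples, which may be technical.

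The families hold near-identical copies, and reads that map to several places were not counted, so the sequences set which members can be measured. The coding starts of SRSF8 and HNRNPCL1 are shown beside those of their source genes, as examples of a more and a less distinct copy, as the first 90 coding bases of the canonical transcript in GENCODE 44 (GRCh38), with the bases at which a copy and its source differ in capitals.
SRSF2: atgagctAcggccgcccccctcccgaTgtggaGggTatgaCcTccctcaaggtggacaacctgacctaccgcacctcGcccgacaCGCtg
SRSF8: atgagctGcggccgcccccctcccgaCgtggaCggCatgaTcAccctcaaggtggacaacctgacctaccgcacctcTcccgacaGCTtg
HNRNPC: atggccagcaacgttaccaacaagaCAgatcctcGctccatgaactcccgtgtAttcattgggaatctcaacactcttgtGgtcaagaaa
HNRNPCL1: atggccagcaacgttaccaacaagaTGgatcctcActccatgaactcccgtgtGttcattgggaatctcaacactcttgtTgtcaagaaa
SRSF8 differed from SRSF2 at 10 of these bases and HNRNPCL1 from HNRNPC at 5. Over the aligned coding sequence, SRSF8 was 84.7% identical to SRSF2 (554 of 654 bases), and 1.49% of the 75-base windows of its transcript occur elsewhere. HNRNPA1L2 and HNRNPA1P48 were 98.4% and 99.4% identical to HNRNPA1, and HNRNPCL1 was 94.7% identical to HNRNPC. HNRNPA1P48, whose symbol marks it as a pseudogene, is annotated as the protein-coding gene HNRNPA1L3 in GENCODE 44.

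Processed pseudogenes, reverse-transcribed copies of a spliced RNA, were unevenly spread over the families. GENCODE 44 lists 136 pseudogenes named after the 39 genes, of which 131 are processed. HNRNPA1 has 72 of the processed ones, HNRNPA3 has 15, HNRNPC has 9, and HNRNPK and SRSF3 have 5 each, while HNRNPA2B1 has 0. Of all 75-base windows of the canonical transcript, 36.4% for HNRNPA1, 25.7% for HNRNPA3 and 24.0% for HNRNPC also occur elsewhere on the 24 primary chromosomes. The share was 41.8% for HNRNPA1L2, 40.2% for HNRNPA1P48, 44.1% for HNRNPCL1, and 90.9% and 95.4% for HNRNPCL3 and HNRNPCL4. HNRNPA2B1 had 0% and HNRNPL 13.0%. The read length is not given in the sources used here, so the window length is only a guide. Levels of HNRNPA1, HNRNPA3 and HNRNPC are therefore probably understated and uncertain as levels. Those of their copies may be too low or too high, since reads of a copy and its source may be exchanged.

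Overlap with another counted gene is the other limit, since reads were counted without regard to strand. SRSF9 shares 46.7% of its counted exon bases with GATC, HNRNPUL2 44.3% with HNRNPUL2-BSCL2, SRSF2 36.7% with MFSD11 and SRSF1 32.7% with AC015813.2. Shares between 13.4% and 15.8% were found for SRSF6, HNRNPU and HNRNPH2, and HNRNPA2B1 shares 3.97% with CBX3. The reads assigned to MFSD11, the neighbour of SRSF2, came to 15.4 to 32.2 CPM (the read count scaled to the size of the library) over the 12 libraries, against 189 to 439.5 CPM for SRSF2. HNRNPA1L2 lies almost wholly (98.3%) within an uncounted gene. Values of these genes are given below with that reservation.

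**Figure D1:**
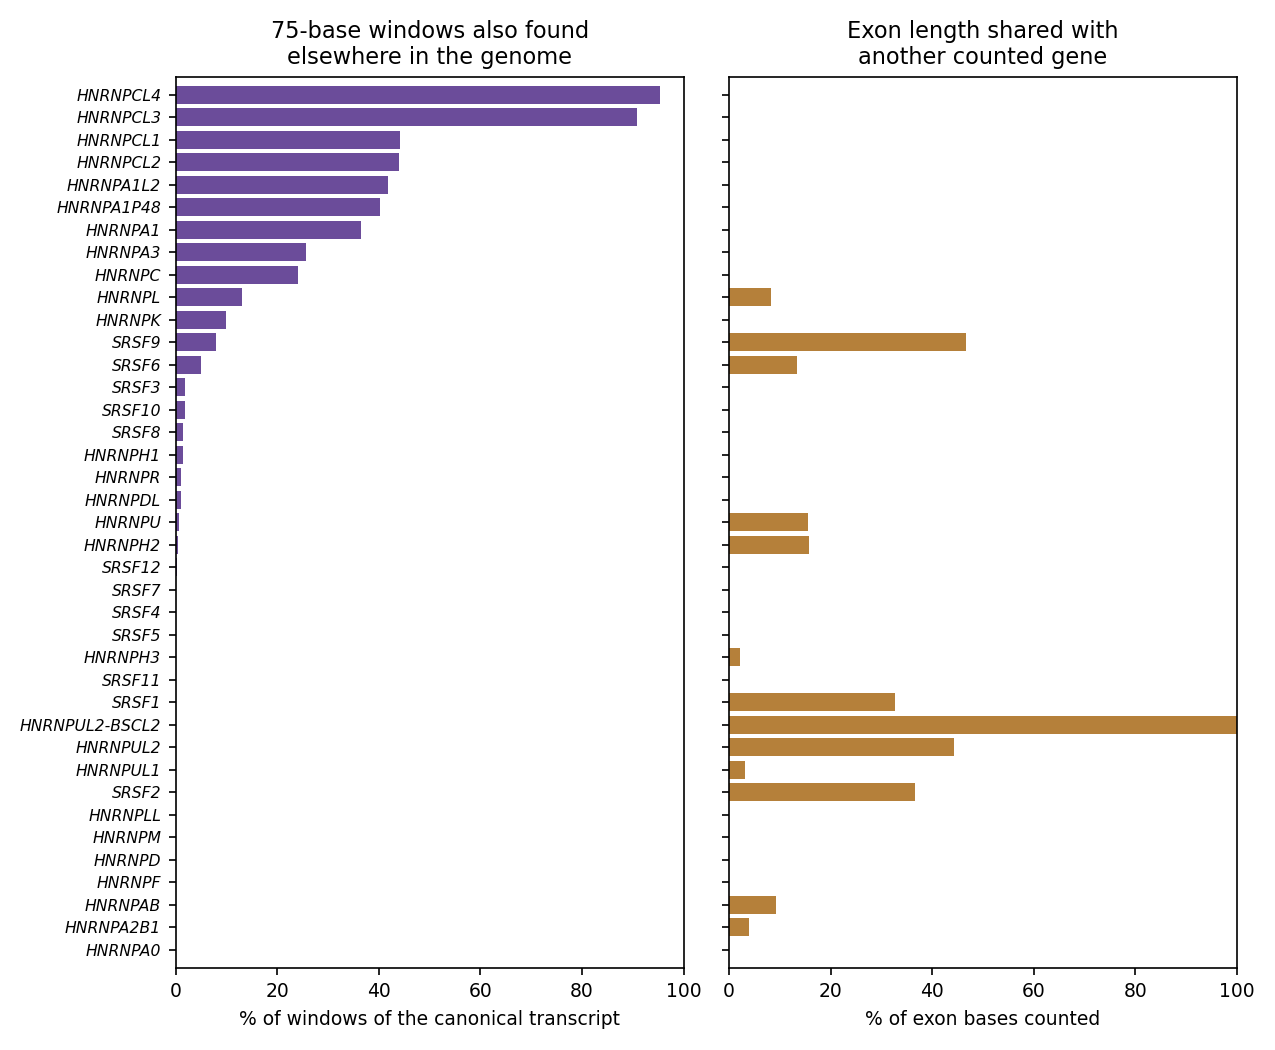
Share of 75-base windows of each gene's canonical transcript that also occur elsewhere in the genome (left, %) and share of counted exon bases that overlap another counted gene (right, %), for the 39 genes. HNRNPCL4 (95.4%) and HNRNPCL3 (90.9%) lead the left panel, HNRNPA1 stands at 36.4% and HNRNPA2B1 at 0%, while SRSF9 (46.7%) and HNRNPUL2 (44.3%) stand out on the right below the readthrough gene.

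The libraries held 47242379 to 58159937 counted reads. METTL3 RNA, which an inhibitor of the protein need not lower, rose in both lines (log2 fold change 0.52 in SK-N-BE2 and 0.92 in NGP, edgeR padj = 0.000106 and 0.0003, where padj is the Benjamini-Hochberg adjusted p). Summed CPM of 6 adrenergic neuroblastoma markers lay between 1279 and 1952 over all groups, but TH was near absent in NGP (0.158 to 0.915 CPM with DMSO). HAND2 was the largest part of that sum (526 to 981 CPM). Among the other markers, DBH fell in both lines (-1.43 and -0.33, edgeR padj = 7.89e-07 and 0.0427), and TH fell (-0.36, edgeR padj = 0.0109) and ISL1 rose (0.34, edgeR padj = 0.00518) in SK-N-BE2. All 3 fibroblast markers (PDGFRB, DCN and LUM) were called higher in both lines. Their sum was 99.4 to 111 CPM with DMSO and 174 to 188 CPM with STM2457 in SK-N-BE2. In NGP it was 30.3 to 40.7 CPM and 149.8 to 178 CPM. Most of the NGP sum was PDGFRB (mean 29.7 CPM with DMSO and 139 CPM with STM2457), while DCN was low there (0.158 and 1.59 CPM). The part of these markers in the results below was not tested. Markers of leukocytes, endothelium and Schwann cells summed to at most 9.94 CPM in any library, and PTPRC, CD3E and PECAM1 were at 0 in both NGP groups. NGP DMSO replicate 1 stood apart. Its chi-square per degree of freedom against the other 2 libraries of its group was 92.6 and 60.8, against 11 between those 2. Counts for NGP are therefore given with and without NGP DMSO replicate 1. Other groups were also uneven: pairs of SK-N-BE2 DMSO libraries gave 41.2, 24.3 and 25.4. NGP STM2457 replicate 2 gave 12.5 and 14.6 against replicates 1 and 3, which gave 2.77 between them.

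More of the hnRNP genes rose than fell with STM2457 in both lines, and the same held for the SR protein genes in NGP, whereas in SK-N-BE2 2 SR protein genes rose and 3 fell. In SK-N-BE2, 17 of 35 tested genes were called (13 higher, 4 lower), where 54.7% of all 14013 tested genes were called (26.9% higher, 27.8% lower). In NGP, 16 of 34 were called (13 higher, 3 lower), where 41.7% of 13610 were called (19.4% higher, 22.2% lower). A call is an adjusted p under 0.05 from edgeR's quasi-likelihood test with Benjamini-Hochberg adjustment over all tested genes. Both shares of called members, 48.6% and 47.1%, lay near those of all genes. The median log2 fold change was 0.16 in SK-N-BE2 and 0.26 in NGP, against -0.02 and -0.03 over all tested genes. By family, 11 of 23 tested HNRNP genes rose and 1 fell in SK-N-BE2 (median 0.22), and 9 of 22 rose and 2 fell in NGP (median 0.28). Of the 12 SRSF genes, 2 rose and 3 fell in SK-N-BE2 (median 0.04), and 4 rose and 1 fell in NGP (median 0.22). In bulk RNA, fewer cells of a type and less RNA per cell cannot be told apart.

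Without NGP DMSO replicate 1 the NGP count was 24 (20 higher, 4 lower), where 57.3% of all genes were called. The 8 members that then passed were HNRNPM, HNRNPUL2, HNRNPA1P48, HNRNPAB, SRSF3, SRSF9 and SRSF12 as rises and HNRNPLL as a fall. In SK-N-BE2, HNRNPH1, HNRNPH3 and SRSF4 passed without DMSO replicate 1, HNRNPUL2 and SRSF2 without DMSO replicate 2, and HNRNPH3 without STM2457 replicate 1. Leaving out NGP DMSO replicate 3, STM2457 replicate 1 or STM2457 replicate 3 gave an NGP count of 10 (9 higher, 1 lower), where 31.6%, 27.7% and 28.4% of all genes were called. The 3 STM2457 libraries lay above all DMSO libraries of the line for 23 genes and below them for 5 of 35 in SK-N-BE2, which is 80.0%, against 62.2% of all tested genes. In NGP the counts were 15 above and 6 below of 34, which is 61.8%, against 54.7% of all tested genes.

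**Figure D2:**
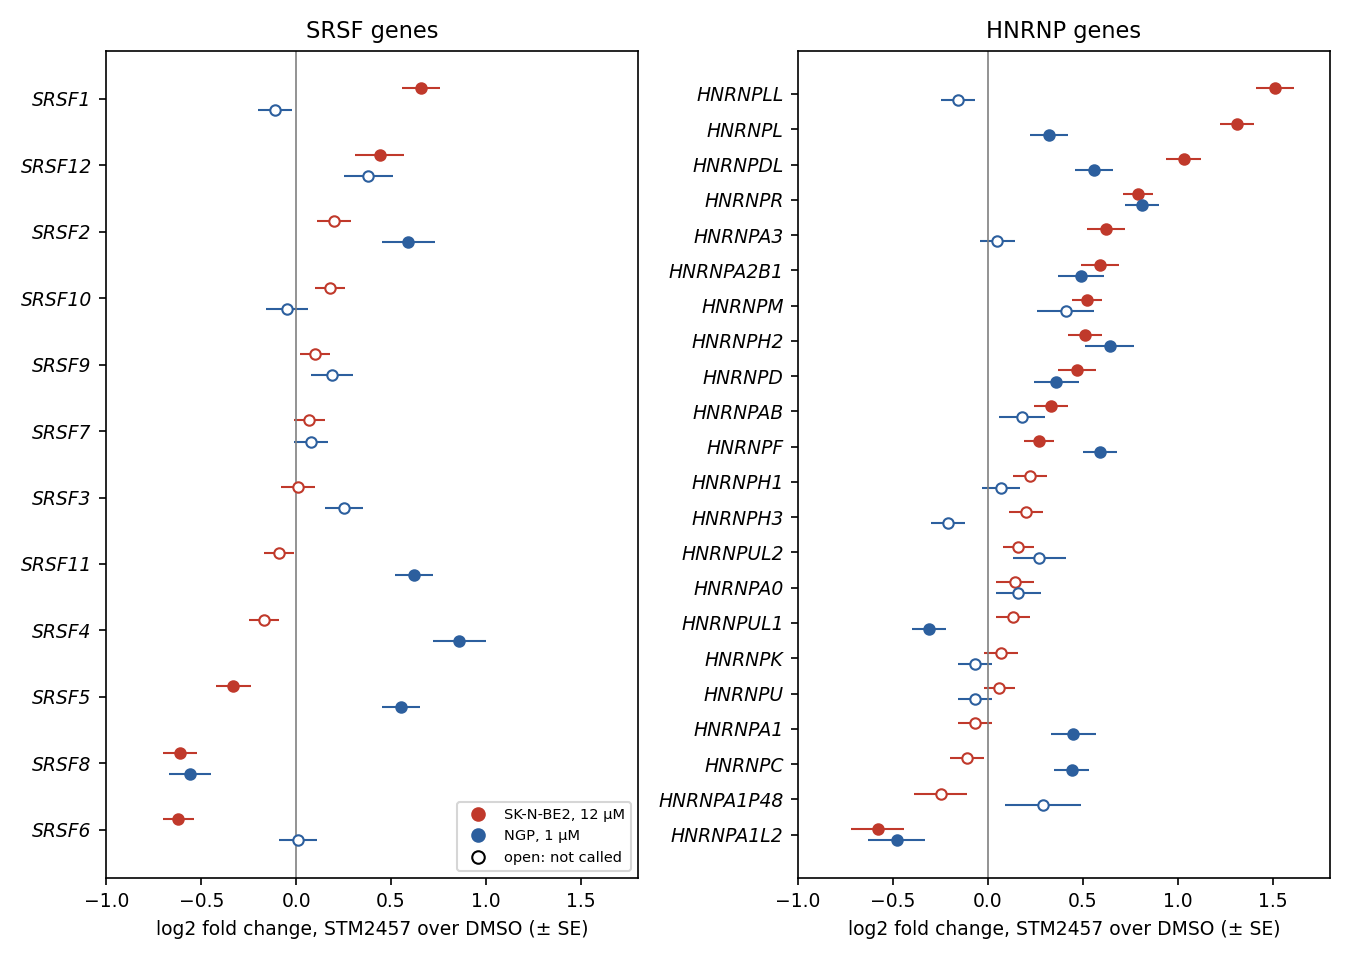
Log2 fold change of STM2457 over DMSO with its standard error for the 34 SRSF (left) and HNRNP (right) genes tested in both lines, in SK-N-BE2 (red) and NGP (blue), sorted by the SK-N-BE2 value; filled points were called at an adjusted p under 0.05. HNRNPLL (1.51) and HNRNPL (1.31) lead in SK-N-BE2, SRSF4 (0.86) and HNRNPR (0.81) in NGP, and SRSF5 is filled on opposite sides of 0.

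The share of all reads taken by the families moved with these changes. HNRNP genes took 0.865% to 0.917% of reads in SK-N-BE2 with DMSO and 1.07% to 1.12% with STM2457, and 1.14% to 1.20% and 1.36% to 1.38% in NGP. The libraries of the treatments did not overlap in either line. SRSF genes took 0.238% to 0.248% with DMSO and 0.229% to 0.245% with STM2457 in SK-N-BE2, where the libraries overlapped. In NGP they went from 0.279% to 0.289% up to 0.313% to 0.333%, with no overlap. HNRNPA1, the most abundant member, made up 24.4% to 26.2% of HNRNP reads in SK-N-BE2 with DMSO and 19.8% to 20.8% with STM2457. In NGP its part was 16.3% to 18.4% with DMSO and 18.9% to 19.9% with STM2457, so the lines moved in opposite directions.

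**Figure D3:**
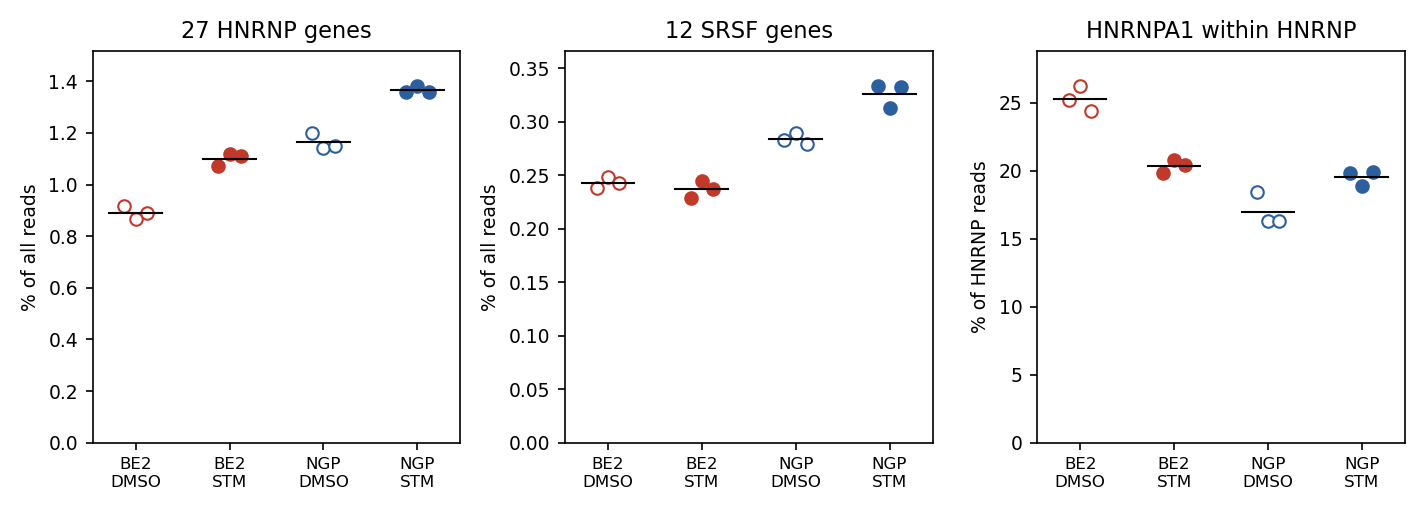
Percentage of all counted reads in each library that fell on the 27 HNRNP genes (left) and the 12 SRSF genes (middle), and percentage of HNRNP reads that fell on HNRNPA1 (right); open points are DMSO, filled points STM2457, red SK-N-BE2, blue NGP, and lines are group means. The HNRNP share is higher with STM2457 in both lines (1.07% to 1.12% against 0.865% to 0.917% in SK-N-BE2), while the SRSF share of SK-N-BE2 overlaps between treatments.

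HNRNPL and HNRNPLL had the largest rises in SK-N-BE2. HNRNPL (chromosome 19, 38836388 to 38852347, minus strand) binds CA-rich RNA and acts as a repressor or activator by position. In SK-N-BE2 it stood at 93.1, 74.9 and 91.4 CPM with DMSO and at 216, 224 and 221 CPM with STM2457. In NGP it stood at 244, 203 and 217 CPM with DMSO and at 277, 283 and 269.5 CPM with STM2457. Treated SK-N-BE2 cells thus reached the level of untreated NGP cells, and in neither line did the treatments overlap. The log2 fold change was 1.31 (SE 0.09, edgeR padj = 1.27e-07) in SK-N-BE2 and 0.32 (SE 0.10, edgeR padj = 0.0289) in NGP. The NGP call was lost, with an edgeR padj of up to 0.105, when any library of that line other than DMSO replicate 1 was left out. The difference between the responses was 1.00 (SE 0.14, edgeR padj = 0.000114).

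HNRNPLL (chromosome 2, 38561969 to 38603586, minus strand), the paralogue of HNRNPL known for exon repression in PTPRC (CD45) of activated T cells, showed the widest gap between the responses. Its level was 13.9, 13.0 and 15.4 CPM in the SK-N-BE2 DMSO libraries and 43.2, 41.1 and 39.4 CPM in the STM2457 libraries. NGP had 75.1, 77.9 and 81.8 CPM with DMSO and 68.5, 72.0 and 69.3 CPM with STM2457. All treated SK-N-BE2 libraries were above their controls, whereas all treated NGP libraries were slightly below theirs. In SK-N-BE2 this was a 2.85-fold rise (log2 fold change 1.51, SE 0.10, edgeR padj = 6.06e-08). The NGP value of -0.16 (SE 0.09) did not pass the test (edgeR padj = 0.196), but passed as a fall without DMSO replicate 1 (-0.19, edgeR padj = 0.0321). The difference between the responses was 1.68 (SE 0.13, edgeR padj = 6.73e-07).

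HNRNPD and HNRNPDL, neighbours on chromosome 4 whose proteins bind AU-rich RNA, rose in both lines, and HNRNPDL rose by more. HNRNPDL (82422564 to 82430408, minus strand) had 235, 202 and 228 CPM with DMSO and 448, 463 and 481 CPM after STM2457 in SK-N-BE2. In NGP it had 445, 375 and 379 CPM with DMSO and 605, 579 and 579 CPM with STM2457. Its treated libraries lay above all controls in each line. On the log2 scale the change was 1.03 (SE 0.09, edgeR padj = 6.57e-07) in SK-N-BE2 and 0.56 (SE 0.10, edgeR padj = 0.00273) in NGP, a difference of 0.48 (SE 0.13, edgeR padj = 0.0114). HNRNPD (82352498 to 82374503, minus strand), also called AUF1 and known for promoting decay of such RNAs, rose by 0.47 on the log2 scale in SK-N-BE2 (edgeR padj = 0.00118) and by 0.36 in NGP (edgeR padj = 0.0451). The NGP call for HNRNPD was lost, at up to 0.153, when any NGP library but DMSO replicate 1 was left out. HNRNPAB, a relative of both, rose in SK-N-BE2 (0.33, edgeR padj = 0.00718) and had a value of 0.18 in NGP (edgeR padj = 0.254).

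HNRNPR (chromosome 1, 23303771 to 23344336, minus strand), a paralogue of SYNCRIP found in neuronal RNA granules, changed by nearly the same amount in both lines. The SK-N-BE2 libraries had 237, 250.4 and 223 CPM with DMSO and 405, 437 and 421 CPM with STM2457. NGP libraries had 332, 359 and 361 CPM with DMSO and 609.8, 612 and 621 CPM with STM2457. Every treated library was above every control of its line. These values gave log2 fold changes of 0.79 (SE 0.08, edgeR padj = 4.68e-06) in SK-N-BE2 and 0.81 (SE 0.09, edgeR padj = 0.000206) in NGP. The difference of -0.01 (SE 0.11) did not pass the test (edgeR padj = 0.995), and it is bounded by that error only.

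Of the m6A-linked members, HNRNPA2B1 rose in both lines and HNRNPC rose in NGP. HNRNPA2B1 (chromosome 7, 26173057 to 26201529, minus strand) had 997, 836 and 899.8 CPM with DMSO and 1348, 1410.1 and 1465 CPM after STM2457 in SK-N-BE2. In NGP it had 1432, 1063 and 1148 CPM with DMSO and 1724, 1664 and 1708 CPM with STM2457. The treatments did not overlap in either line, although NGP DMSO replicate 1 was well above the other controls. The fitted log2 change was 0.59 (SE 0.10, edgeR padj = 0.000169) in SK-N-BE2 and 0.49 (SE 0.12, edgeR padj = 0.0136) in NGP, with a difference of 0.12 (SE 0.16, edgeR padj = 0.615). Leaving out NGP DMSO replicate 3, STM2457 replicate 1 or STM2457 replicate 3 ended the NGP call, with an edgeR padj of up to 0.0596.

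HNRNPC (chromosome 14, 21209136 to 21269494, minus strand) packages pre-mRNA as a tetramer and keeps U2AF2 off cryptic sites such as those in antisense Alu elements. In SK-N-BE2 it stood at 673, 734 and 681 CPM with DMSO and at 640.4, 676 and 662 CPM with STM2457, and these values overlapped. NGP had 726, 636 and 659.8 CPM with DMSO and 924, 889.9 and 918 CPM with STM2457, which did not overlap. The log2 fold change was -0.11 (SE 0.09, edgeR padj = 0.276) in SK-N-BE2 and 0.44 (SE 0.09, edgeR padj = 0.00615) in NGP. The responses differed by -0.54 (SE 0.11, edgeR padj = 0.00283). Per kilobase of exon, the ratio of HNRNPC to HNRNPA2B1 was 0.856, 1.11 and 0.96 in the SK-N-BE2 controls and 0.602, 0.607 and 0.573 with STM2457. In NGP the ratio was 0.643 to 0.758 with DMSO and 0.678 to 0.681 with STM2457, which overlap. As HNRNPC has 9 processed pseudogenes and HNRNPA2B1 has 0, the ratio of levels is uncertain.

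HNRNPA1 and HNRNPA3, A-type hnRNPs that bind UAG-like motifs and often repress exons, were each called in a single line. HNRNPA1 (chromosome 12, 54280193 to 54287088, plus strand) had 2365, 2335 and 2206 CPM with DMSO and 2126, 2325 and 2286 CPM after STM2457 in SK-N-BE2. NGP had 2263, 1761 and 1819 CPM with DMSO and 2686, 2589.9 and 2687 CPM with STM2457. The SK-N-BE2 libraries overlapped and the NGP libraries did not. Its log2 fold change was -0.07 (edgeR padj = 0.541) in SK-N-BE2 and 0.45 (SE 0.12, edgeR padj = 0.0155) in NGP, and the difference was -0.51 (SE 0.14, edgeR padj = 0.016). Without NGP DMSO replicate 3, STM2457 replicate 1 or STM2457 replicate 3, the NGP value no longer passed (edgeR padj up to 0.0675).

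HNRNPA3 (chromosome 2, 177212563 to 177223958, plus strand) showed the reverse. It stood at 457, 362 and 399 CPM with DMSO and at 625, 659.9 and 635 CPM after STM2457 in SK-N-BE2, without overlap. In NGP it stood at 951, 1015 and 913 CPM with DMSO and at 1006, 965 and 1009 CPM with STM2457, with overlap. On the log2 scale the change was 0.62 (SE 0.10, edgeR padj = 0.000126) in SK-N-BE2 and 0.05 (SE 0.09, edgeR padj = 0.676) in NGP, a difference of 0.58 (SE 0.13, edgeR padj = 0.00426). HNRNPA0, which has no intron and binds AU-rich RNA, was not called in either line (0.14 and 0.16).

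HNRNPA1L2 (chromosome 13, 52642425 to 52643796, plus strand), a retrotransposed copy of HNRNPA1, was counted at a low level and fell in both lines. It had 9.91, 13.0 and 13.3 CPM with DMSO and 7.63, 8.78 and 8.38 CPM after STM2457 in SK-N-BE2, and 16.9, 13.7 and 13.7 CPM against 9.19, 11.0 and 11.6 CPM in NGP. Treated libraries lay below all controls in each line. These values gave log2 fold changes of -0.58 (SE 0.14, edgeR padj = 0.00259) in SK-N-BE2 and -0.48 (SE 0.15, edgeR padj = 0.0302) in NGP. The NGP call was lost without DMSO replicate 3 or any STM2457 library of that line (edgeR padj up to 0.129). HNRNPA1P48 (chromosome 16, 51553436 to 51647132, plus strand), at 10.6 to 20.1 CPM over the 12 libraries, was not called in SK-N-BE2 (-0.25) or NGP (0.29). Without NGP DMSO replicate 1 the NGP value was 0.54 and passed (edgeR padj = 0.00475), and without SK-N-BE2 DMSO replicate 2 the SK-N-BE2 value was -0.07. HNRNPA1L2 thus fell while HNRNPA1 was not called in SK-N-BE2 and rose in NGP, but how their reads were shared out was not tested.

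Of the H and F group, whose proteins bind G-rich tracts, HNRNPH2 and HNRNPF rose in both lines. HNRNPH2 (X chromosome, 101408222 to 101414133, plus strand) had 71.4, 77.7 and 66.2 CPM with DMSO and 100, 105 and 109.6 CPM after STM2457 in SK-N-BE2. In NGP the values were 52.0, 41.5 and 38.2 CPM and 71.0, 66.1 and 68.3 CPM. No treated library overlapped with a control of its line, and the log2 fold changes were 0.51 (SE 0.09, edgeR padj = 0.000227) and 0.64 (SE 0.13, edgeR padj = 0.00481). HNRNPF (chromosome 10, 43385617 to 43409166, minus strand) went from 324, 341 and 327 CPM to 397, 420.3 and 411 CPM in SK-N-BE2 and from 229, 203 and 224 CPM to 324, 340.2 and 321 CPM in NGP. Again the treated libraries were all higher, with log2 fold changes of 0.27 (SE 0.08, edgeR padj = 0.011) and 0.59 (SE 0.09, edgeR padj = 0.0013). The SK-N-BE2 call for HNRNPF was lost without STM2457 replicate 2 or 3 (edgeR padj up to 0.0579). HNRNPH1, the abundant paralogue of HNRNPH2, was not called in either line (0.22, edgeR padj = 0.0644, and 0.07, edgeR padj = 0.607). HNRNPH3 had values of 0.20 in SK-N-BE2 (edgeR padj = 0.0658) and -0.21 in NGP (edgeR padj = 0.102), and the difference of 0.42 passed (edgeR padj = 0.0186). That call was lost without SK-N-BE2 DMSO replicate 3, STM2457 replicate 2 or STM2457 replicate 3, at up to 0.0574.

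Of HNRNPU and its relatives HNRNPUL1 and HNRNPUL2, HNRNPUL1 was called in NGP and none in SK-N-BE2. HNRNPU, also known as scaffold attachment factor A, had 786 to 883 CPM in SK-N-BE2 and 1028 to 1163 CPM in NGP and was not called (0.06, edgeR padj = 0.604, and -0.07, edgeR padj = 0.549). HNRNPUL1 (chromosome 19, 41262496 to 41307787, plus strand) had 461, 458 and 461 CPM with DMSO and 354, 406 and 352 CPM with STM2457 in NGP. It fell by 0.31 on the log2 scale (SE 0.09, edgeR padj = 0.0287), a call lost without DMSO replicate 3, STM2457 replicate 1 or STM2457 replicate 3 (edgeR padj up to 0.144). In SK-N-BE2 HNRNPUL1 had 288, 253 and 292 CPM and then 329, 308 and 299 CPM (0.13, edgeR padj = 0.219), and the responses differed by 0.45 (edgeR padj = 0.0139). HNRNPUL2 had values of 0.16 in SK-N-BE2 (edgeR padj = 0.103) and 0.27 in NGP (edgeR padj = 0.16), neither of them called. Its NGP value passed without DMSO replicate 1 (0.43, edgeR padj = 0.0015) and in the joint fit of 12 libraries (edgeR padj = 0.049). HNRNPK, which binds C-rich RNA, was called in neither line (0.07 and -0.07). HNRNPM, which binds GU-rich RNA, rose in SK-N-BE2 (0.52, SE 0.08, edgeR padj = 0.000171) and had a value of 0.41 (SE 0.15, edgeR padj = 0.0578) in NGP, where its controls ran from 284 to 394 CPM.

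SRSF1 rose in SK-N-BE2 and SRSF2 in NGP. SRSF1 (chromosome 17, 58000919 to 58007346, minus strand), a proto-oncogene that binds purine-rich enhancers, had 127, 100.4 and 97.2 CPM with DMSO and 174, 187 and 165 CPM after STM2457 in SK-N-BE2. NGP had 355, 361 and 339 CPM with DMSO and 333, 312 and 333 CPM with STM2457. Treated libraries were all above the controls in SK-N-BE2 and all below them in NGP. The fitted log2 change was 0.66 (SE 0.10, edgeR padj = 0.000131) in SK-N-BE2 and -0.11 (SE 0.09, edgeR padj = 0.352) in NGP, a difference of 0.78 (SE 0.14, edgeR padj = 0.000987). SRSF2 (chromosome 17, 76734115 to 76737374, minus strand) had 189, 225 and 210.3 CPM and then 237, 253 and 245 CPM in SK-N-BE2, a value of 0.20 that did not pass (edgeR padj = 0.0676). In NGP it had 339, 243 and 259 CPM and then 434, 393 and 439.5 CPM, a rise of 0.59 (SE 0.14, edgeR padj = 0.00871). The difference of -0.38 did not pass (SE 0.16, edgeR padj = 0.097). SRSF3 and SRSF7, which also adapt mRNA for export, were called in neither line, with values of 0.01 and 0.25 for SRSF3 and 0.07 and 0.08 for SRSF7.

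SRSF4, SRSF5 and SRSF6, closely related SR proteins with a pair of RNA recognition motifs, all had a more positive response in NGP. SRSF4 (chromosome 1, 29147743 to 29181900, minus strand) had 139, 149 and 149 CPM with DMSO and 126, 134 and 138 CPM after STM2457 in SK-N-BE2. In NGP it had 109, 78.1 and 86.1 CPM with DMSO and 161, 179 and 157 CPM with STM2457. Neither line showed overlap, and the directions were opposite, but only the NGP rise of 0.86 (SE 0.14, edgeR padj = 0.00143) passed. The SK-N-BE2 value was -0.17 (SE 0.08, edgeR padj = 0.082, but 0.0379 without DMSO replicate 1). The responses differed by -1.02 (SE 0.16, edgeR padj = 0.000274). With upper-quartile factors and all libraries in, SRSF4 also passed as a fall in SK-N-BE2 (-0.22, edgeR padj = 0.0268). The NGP rise was called there too, so the calls were then opposite.

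With all libraries in and scaling by TMM, SRSF5 (chromosome 14, 69726900 to 69772005, plus strand) was the one member called in opposite directions. It had 217, 241 and 243 CPM with DMSO and 179.5, 191 and 201 CPM after STM2457 in SK-N-BE2. In NGP it had 172, 152 and 144 CPM with DMSO and 227, 237 and 219 CPM with STM2457. The treated libraries lay below all controls in SK-N-BE2 and above all controls in NGP. The log2 fold change was -0.33 (SE 0.09, edgeR padj = 0.00494) and 0.55 (SE 0.10, edgeR padj = 0.00299), and the difference was -0.87 (SE 0.13, edgeR padj = 0.00018).

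SRSF6 (chromosome 20, 43457893 to 43466046, plus strand) fell in SK-N-BE2, from 375, 399 and 356 CPM to 245, 258 and 250.4 CPM. In NGP it stood at 285, 261 and 265 CPM with DMSO and 286, 246 and 279.9 CPM with STM2457. The SK-N-BE2 groups were well apart and the NGP groups overlapped. On the log2 scale the change was -0.62 (SE 0.08, edgeR padj = 3.38e-05) in SK-N-BE2 and 0.01 (SE 0.10, edgeR padj = 0.969) in NGP, a difference of -0.61 (SE 0.12, edgeR padj = 0.00139).

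SRSF8 (chromosome 11, 95067197 to 95071224, plus strand), a retrotransposed relative of SRSF2 that kept its reading frame, fell in both lines, while its source gene was not called in SK-N-BE2 and rose in NGP. It had 204, 246 and 228 CPM with DMSO and 151, 159 and 146 CPM after STM2457 in SK-N-BE2. NGP had 103, 92.2 and 89.8 CPM with DMSO and 64.5, 69.1 and 59.0 CPM with STM2457. Treated libraries lay below all controls in each line, and the log2 fold changes were -0.61 (SE 0.09, edgeR padj = 7.68e-05) and -0.56 (SE 0.11, edgeR padj = 0.00352). The responses differed by -0.04 (SE 0.13, edgeR padj = 0.882). Per kilobase of exon, the ratio of SRSF8 to SRSF2 was 0.809, 0.819 and 0.811 in SK-N-BE2 controls and 0.476, 0.471 and 0.446 with STM2457. In NGP it went from 0.226, 0.284 and 0.26 to 0.111, 0.132 and 0.101. The SRSF8 share thus dropped in every treated library, and was lower in NGP throughout.

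SRSF11 (chromosome 1, 70205682 to 70253052, plus strand), an atypical SR protein that works with SRRM4 on neuronal microexons, had 298, 269.8 and 279 CPM with DMSO and 259, 279.7 and 277 CPM after STM2457 in SK-N-BE2. In NGP it went from 196, 229.5 and 210.4 CPM to 336, 312 and 330 CPM. The SK-N-BE2 groups overlapped, and the NGP groups did not. These values gave log2 fold changes of -0.09 (SE 0.08, edgeR padj = 0.369) in SK-N-BE2 and 0.62 (SE 0.10, edgeR padj = 0.00128) in NGP, a difference of -0.70 (SE 0.12, edgeR padj = 0.000468). SRSF10, a repressor when dephosphorylated, was called in neither line (0.18, edgeR padj = 0.0621, and -0.05, edgeR padj = 0.723). Its paralogue SRSF12, at 8.56 to 26.4 CPM, rose in SK-N-BE2 (0.44, edgeR padj = 0.0144) and had a value of 0.38 in NGP (edgeR padj = 0.0513). Leaving out DMSO replicate 3 ended the call in SK-N-BE2 (edgeR padj = 0.0663). SRSF9 was called in neither line (0.10 and 0.19).

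The remaining 5 members carried almost no reads, or none. HNRNPCL1 had 0 to 0.364 CPM and was tested in SK-N-BE2 (-0.03, edgeR padj = 0.976) and for the difference between the lines (-0.57, edgeR padj = 0.782), but not in NGP. HNRNPCL2, HNRNPCL3 and HNRNPCL4 had at most 0.0959 CPM in any library and were not tested within a line. HNRNPUL2-BSCL2 was listed at 0 in all 12 libraries. All of its exon bases overlap HNRNPUL2 or BSCL2, so its count of 0 does not measure its level.

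**Figure D4:**
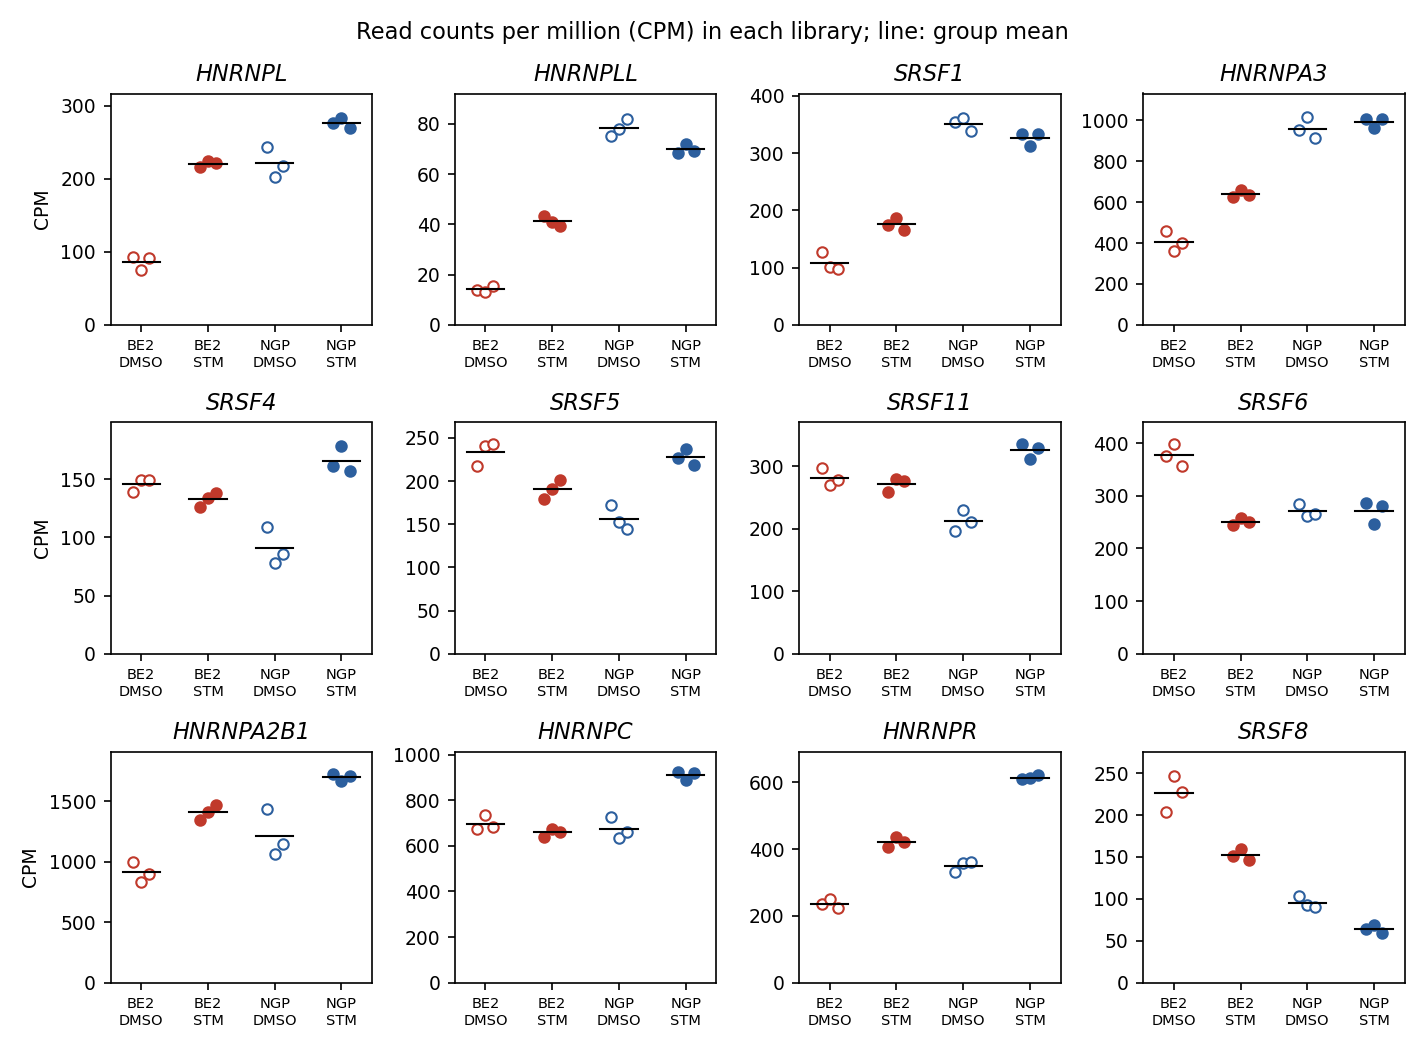
CPM of 12 genes in each library (vertical axis from 0, own scale per gene), with open points for DMSO, filled points for STM2457, red for SK-N-BE2 (BE2), blue for NGP and lines for group means. HNRNPL rises from 74.9 to 93.1 CPM up to 216 to 224 CPM in SK-N-BE2, SRSF5 is lower with STM2457 in SK-N-BE2 and higher in NGP, SRSF4 rises in NGP (its SK-N-BE2 value of -0.17 was not called), and SRSF8 is lower with STM2457 in both.

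Across the lines, 10 of the 34 members tested in both were called in both, 9 of them in the same direction. HNRNPA2B1, HNRNPD, HNRNPDL, HNRNPF, HNRNPH2, HNRNPL and HNRNPR rose in both, HNRNPA1L2 and SRSF8 fell in both, and SRSF5 was opposite. Of 12952 genes tested in both lines, 21.3% were called in the same direction (10.5% higher in both, 10.8% lower in both) and 4.96% in opposite directions. The difference between the responses was called for 14 of 35 members, where 30.9% of all 14731 tested genes were called. Without NGP DMSO replicate 1 that count was 18, where 42.0% of all genes were called, with SRSF2 (-0.56), SRSF3 (-0.31), SRSF10 (0.32) and HNRNPA1P48 (-0.80) added. HNRNPLL, HNRNPL, SRSF1, HNRNPA3, HNRNPDL, HNRNPUL1 and HNRNPH3 responded more positively in SK-N-BE2, where 17.0% of all genes were called in that direction. SRSF4, SRSF5, SRSF11, SRSF6, HNRNPC, HNRNPA1 and HNRNPF did so in NGP, against 13.9% of all genes. By family, 6 HNRNP genes and 1 SRSF gene were more positive in SK-N-BE2, and 3 HNRNP genes and 4 SRSF genes in NGP. HNRNPF lost this call when any of 9 of the 12 libraries was left out, with an edgeR padj of up to 0.114.

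The lines also started at different levels, and the levels lay closer together with STM2457. The absolute log2 ratio of mean CPM, SK-N-BE2 over NGP, had a median of 0.54 with DMSO and 0.35 with STM2457 over the 34 members that reached 5 CPM. It was smaller with STM2457 for 28 of them (82.4%), against 56.6% of 11274 genes (medians 0.59 and 0.50). The ratio went from -2.47 to -0.76 for HNRNPLL, from -1.36 to -0.33 for HNRNPL and from -1.70 to -0.90 for SRSF1. For SRSF4 it changed sign, from 0.68 to -0.32, and likewise for SRSF5 (0.58 to -0.25) and SRSF11 (0.41 to -0.26). SRSF8 kept its gap (1.25 and 1.24), and HNRNPA1 changed sign at the same size (0.24 to -0.24). The gap widened for 5 members: HNRNPC (0.05 to -0.47), SRSF2 (-0.43 to -0.79), SRSF3 (-0.35 to -0.56), HNRNPA1L2 (-0.29 to -0.36) and SRSF9 (-0.15 to -0.20). Without NGP DMSO replicate 1, an alternative added after seeing the data, it was smaller for 26 members (76.5%), against 58.1% of all genes. These values are given as a description without a test.

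**Figure D5:**
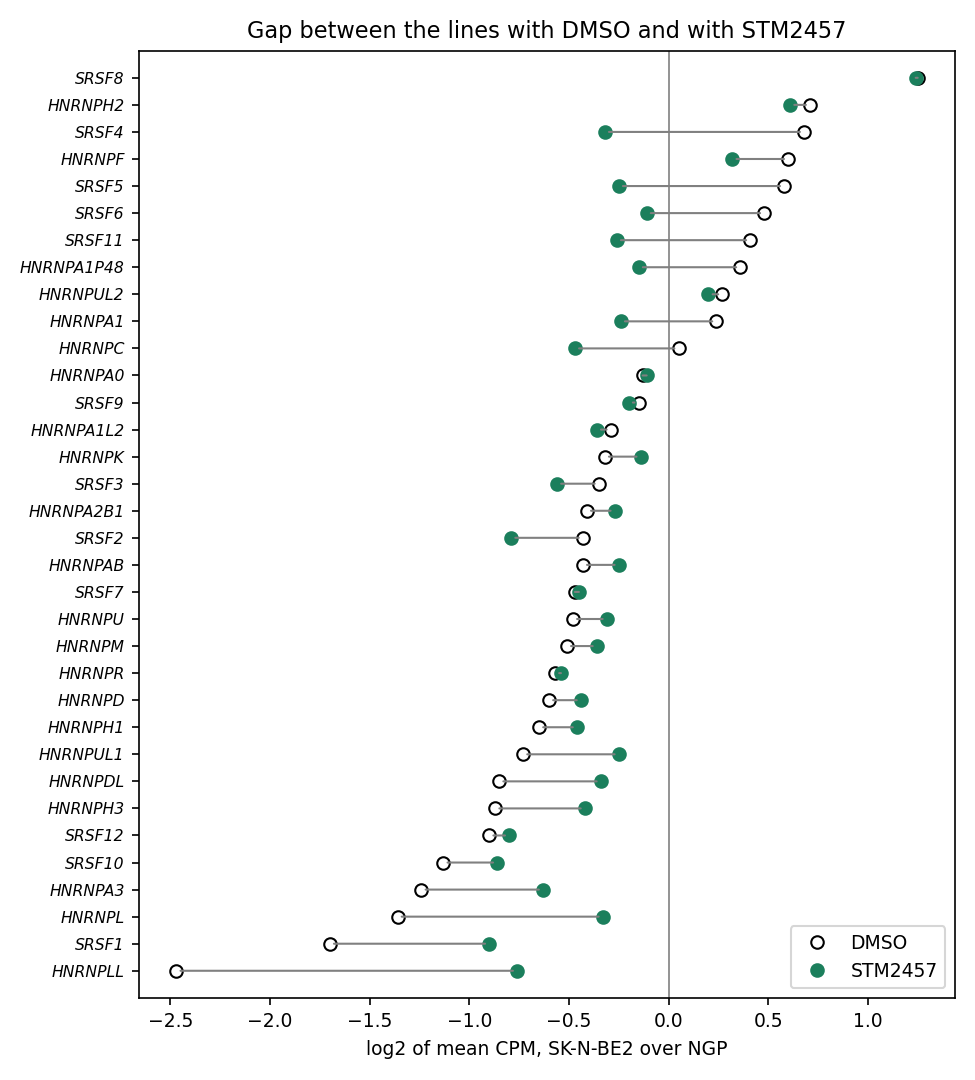
Log2 ratio of mean CPM, SK-N-BE2 over NGP, with DMSO (open) and with STM2457 (filled green) for 34 members, sorted by the DMSO value; the vertical line at 0 marks equal levels. The gap is smaller with STM2457 for 28 of 34 members, most of all for HNRNPLL (-2.47 to -0.76), while SRSF8 keeps its gap (1.25 and 1.24).

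Per kilobase of exon, HNRNPA1 was the most abundant member in every group, at 452 ± 16.6 CPM per kb (SD, n = 3) in SK-N-BE2 controls and 382 ± 53.9 in NGP controls, and at 441 ± 20.6 and 521 ± 10.9 with STM2457. HNRNPK came next in every group, at 167 ± 5.58 and 208 ± 9.11 CPM per kb with DMSO. In SK-N-BE2 controls HNRNPAB (111 ± 11.0), HNRNPF (102 ± 2.75), HNRNPA2B1 (98.3 ± 8.71) and HNRNPC (95.2 ± 4.50 CPM per kb) followed, and neighbours in that order lay within their spread. With STM2457 HNRNPA2B1 had the third highest mean in both lines, at 152 ± 6.32 CPM per kb in SK-N-BE2 and 183 ± 3.38 in NGP, where HNRNPAB (169 ± 18.0) lay within the spread. The highest SRSF mean was that of SRSF6 in SK-N-BE2 controls (76.9 ± 4.41 CPM per kb) and of SRSF2 in NGP controls (93.0 ± 17.1). The next SRSF genes, SRSF2 in SK-N-BE2 (68.9 ± 6.05) and SRSF7 in NGP (79.0 ± 4.49), lay within the spread. SRSF12 and HNRNPLL were the lowest of the well-counted members in SK-N-BE2 controls, at 2.30 ± 0.449 and 2.38 ± 0.204 CPM per kb, which lay within their spread. Exon lengths are the union of all annotated exons, which understates genes with long alternative ends, and pseudogene copies understate HNRNPA1.

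Kinases that phosphorylate the serine-rich domains of SR proteins, with their phosphatase and importin, were a list of 11 genes. In SK-N-BE2 3 rose and 3 fell (54.5% called, against 54.7% of all tested genes), and in NGP 2 rose and 2 fell (36.4% called, against 41.7%). CLK4 (0.56, edgeR padj = 0.00061) and SRPK1 (0.46, edgeR padj = 0.000368), a cytoplasmic SR protein kinase, rose in SK-N-BE2. In NGP CLK1, a nuclear kinase that releases SR proteins from speckles, fell by 0.60 on the log2 scale (edgeR padj = 0.00398) and CLK2 rose by 0.47 (edgeR padj = 0.00553). The responses differed between lines for 5 of the 11 genes (45.5%, against 30.9% of all tested genes). They were CLK1 (0.65, edgeR padj = 0.00283), CLK2 (-0.57, edgeR padj = 0.00218), CLK4 (0.84, edgeR padj = 0.000923), SRPK1 (0.50, edgeR padj = 0.0177) and SRPK3 (-2.64, edgeR padj = 0.000114). DYRK1A fell in both lines (-0.29 and -0.39, edgeR padj = 0.00562 and 0.0323). SRPK3 fell in SK-N-BE2 (-0.36, edgeR padj = 0.0424) and rose in NGP (2.28, edgeR padj = 0.00139), where its mean was 0.632 CPM with DMSO and 3.08 CPM with STM2457. The other called genes in SK-N-BE2 were PRPF4B (0.24, edgeR padj = 0.0355) and the phosphatase subunit PPP1CA (-0.35, edgeR padj = 0.0023).

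Among 8 SR-related proteins that bind exons with SR proteins, 3 rose and 0 fell in SK-N-BE2 (37.5% called, against 54.7% of all tested genes), and 3 rose and 1 fell in NGP (50.0% called, against 41.7%). SRRM2, a scaffold of nuclear speckles, rose in both (0.51 and 0.42, edgeR padj = 0.0102 and 0.0168), as did PNN (0.41 and 0.64, edgeR padj = 0.00171 and 0.000692). SRRM1 rose in SK-N-BE2 (0.49, edgeR padj = 0.000247) and ACIN1, a partner of the exon junction complex, in NGP (0.41, edgeR padj = 0.0131), and RNPS1 fell in NGP (-0.34, edgeR padj = 0.0322). Of 12 hnRNP proteins that carry other symbols, 3 rose and 1 fell in SK-N-BE2 (33.3% called), and 2 rose and 0 fell in NGP (16.7% called). TARDBP, which encodes TDP-43, had 66.3, 66.8 and 61.1 CPM with DMSO and 129, 132 and 125 CPM after STM2457 in SK-N-BE2. Its log2 fold change there was 0.95 (edgeR padj = 4.84e-07), with 0.23 in NGP (edgeR padj = 0.0757) and a difference of 0.74 (edgeR padj = 0.000242). FUBP1 (0.58, edgeR padj = 0.000391) and RBMX (0.50, edgeR padj = 0.000267) rose in SK-N-BE2, and PCBP2, a poly-C binder, fell there (-0.55, edgeR padj = 0.000155). In NGP the polypyrimidine tract proteins PTBP1 (0.60, edgeR padj = 0.0112) and PTBP2 (0.35, edgeR padj = 0.0273) both rose. PTBP1 had 423, 407 and 471 CPM with DMSO and 583, 808 and 576 CPM with STM2457 there. The size of its rise thus leaned in part on STM2457 replicate 2.

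A list of 17 genes held the U1 and U2 snRNP core, which SR proteins help to recruit, and the splice site factors U2AF1, U2AF2 and SF1. Of these, 8 rose and 1 fell in SK-N-BE2 (52.9% called), and 5 rose and 2 fell in NGP (41.2% called). Both shares lay near those of all genes. The U2 subunits SF3A1 (0.51 and 0.50, edgeR padj = 0.000142 and 0.00248) and SF3A3 (0.52 and 0.39, edgeR padj = 0.000102 and 0.0161) rose in both lines. SF3B3 rose in SK-N-BE2 (0.54, edgeR padj = 0.000134). SNRPA, the U1 A protein, rose in NGP (0.85, edgeR padj = 0.00572) and SF3A2 fell there (-0.62, edgeR padj = 0.0131). SF3B6 was the fall in SK-N-BE2 (-0.46, edgeR padj = 0.00214), and SF1, the branch point binding protein, was the other fall in NGP (-0.50, edgeR padj = 0.00211). Nonsense-mediated decay factors, which remove the poison-exon transcripts of SR and hnRNP genes, gave 3 rises and 3 falls among 14 in SK-N-BE2. In NGP they gave 1 rise and 5 falls. This is 42.9% called in each line, against 54.7% of all tested genes in SK-N-BE2 and 41.7% in NGP. SMG5 rose in SK-N-BE2 (0.34, edgeR padj = 0.00246) and fell in NGP (-0.70, edgeR padj = 0.00103), whereas EIF4A3, a core of the exon junction complex, fell in SK-N-BE2 (-0.39, edgeR padj = 0.00142) and rose in NGP (0.41, edgeR padj = 0.0263). SMG9 rose (0.46, edgeR padj = 0.000578) and SMG8 fell (-0.39, edgeR padj = 0.00136) in SK-N-BE2, and UPF3B fell in NGP (-0.47, edgeR padj = 0.00792). Of 7 genes for arginine methylation and nuclear import of hnRNPs, 1 rose in SK-N-BE2 (14.3% called, against 54.7%) and 3 fell in NGP (42.9% called, against 41.7%). PRMT1, which methylates arginines of many hnRNPs, rose in SK-N-BE2 (0.36, edgeR padj = 0.00161), and PRMT3 (-0.63, edgeR padj = 0.00273), PRMT6 (-0.46, edgeR padj = 0.0056) and PRMT5 (-0.38, edgeR padj = 0.00831) fell in NGP.

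The m6A mark is laid mainly in the context DRACH, of which GGACT is the form most favoured by the writer. GGACT was searched on the sense strand of the canonical transcripts of GENCODE 44. It occurred in 35 of 39 member transcripts (89.7%), against 87.8% of 20046 canonical protein-coding transcripts. Its density had a median of 0.74 per kb over the members and 0.92 per kb over all. HNRNPA2B1, HNRNPAB, HNRNPM and SRSF5 had 0 matches, and SRSF9 (2.60 per kb), SRSF7 (2.12 per kb) and HNRNPA1 (1.87 per kb) had the densest. These are letters in a sequence and not measured m6A sites.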

How the data were processed

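The titles gave each of the 12 polyadenylated RNA libraries its line, treatment and replicate. Per the file headers, the authors ran featureCounts 2.0.5 on exons of GENCODE 33 protein-coding genes grouped by gene name, in paired mode but without counting pairs, without a strand option and without multi-mapping reads. The deposited values are raw counts, not normalized, and a fragment can add up to 2: even numbers made up 72.1% to 75.4% of the counts of 1 to 20. Per the submitters' processing notes, Trimmomatic 0.36, FastQC 0.11.5, HISAT2 2.1.0 and Subread 1.5.3 were used on GRCh38; the notes' Subread version differs from the headers' featureCounts. Per the file headers the lines came from different sequencing runs. Libraries held 47242379 to 58159937 reads, so counting error is small for all but the HNRNPCL genes, and 3 replicates limit the rest.

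Each line's 6 libraries were fitted separately in edgeR 4.0.16 under R 4.3.3. Low counts were removed by filterByExpr (at least 10), libraries were scaled by TMM, and p-values from quasi-likelihood tests were adjusted by Benjamini-Hochberg over every gene tested (padj, called under 0.05). The difference, SK-N-BE2 minus NGP, was a contrast of 4 group means over 12 libraries. Standard errors were computed as the fold change (log2) over the root of F, and CPM use TMM factors over the 12 libraries. All changes are relative, since no spike-in entered the scaling. The members, the related lists and the markers were chosen with earlier results of these data known. Given in full were HNRNPA2B1 and HNRNPC, the 5 largest called rises and falls per line, the 4 largest called differences in each direction and members called in opposite directions, all with at least 5 CPM, and up to 3 called genes per related list and line. HNRNPA1, SRSF2 and the other members given per library beyond these were chosen after their values were seen, as were SRPK3 in NGP, PRPF4B, PPP1CA, RNPS1, RBMX, SF3B6, SF1, MFSD11 and the ratios between paralogues. Alternatives were a replicate block, DESeq2 size factors, upper-quartile factors, a filter at a mean of 1 CPM or none, DESeq2 1.42.0, robust dispersion, counts halved, a joint fit and leaving out each library. Single genes were followed through them for the members only, so calls of related genes, markers and METTL3 carry no such check. No replicate pair differed by as little as sampling noise (lowest chi-square per degree of freedom 2.77). On simulated counts in which 200 genes moved by 1 on the log2 scale, the SK-N-BE2 fit (14001 genes) recovered 94.9% with 5.08% false calls. The NGP fit (13533 genes) recovered 96.5% with 3.02%, and the difference (14724 genes) 63% with 2.33%. The simulation gave every gene the same dispersion and moved far fewer genes than were called in the data. Its rates therefore need not hold for the fits reported here, least of all for smaller changes.

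Transcripts, coding sequences, pseudogenes and overlaps come from GENCODE 44 on GRCh38, where HNRNPA1P48 was matched by position and the other members by name. Positions of genes, counted from 1, were read from the deposited tables. Some marker genes and sequences are not reported here.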

Additional observations from a re-analysis of the deposited data

Results flagged for a closer look

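The log2 response to STM2457 differed between the lines, SK-N-BE2 minus NGP, by a contrast over 12 libraries in edgeR for 14 members. It was larger in SK-N-BE2 by 1.68 for HNRNPLL, 1.00 for HNRNPL, 0.78 for SRSF1, 0.58 for HNRNPA3, 0.48 for HNRNPDL, 0.45 for HNRNPUL1 and 0.42 for HNRNPH3. It was larger in NGP for SRSF4 (-1.02), SRSF5 (-0.87), SRSF11 (-0.70), SRSF6 (-0.61), HNRNPC (-0.54), HNRNPA1 (-0.51) and HNRNPF (-0.31). The line cannot be told apart from the dose or the run here. Groups held 3 samples, so single libraries were not tested as outliers.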

How the results depend on the processing

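No called member changed direction under any alternative run. The count of called members in SK-N-BE2 was 17 and ran from 16 to 20 when a library was left out. In NGP it was 16 and ran from 10 to 24, with 10 without DMSO replicate 3, STM2457 replicate 1 or STM2457 replicate 3 and 24 without DMSO replicate 1. For the difference between the lines it was 14 and ran from 12 to 18. DESeq2 called 21, 19 and 14 members, and upper-quartile factors 18, 17 and 14. Of the called members, 15 of 17 in SK-N-BE2, 10 of 16 in NGP and 12 of 14 for the difference kept their call in every alternative run. With the replicate number as a block the counts were 17, 12 and 12. In NGP, HNRNPA1L2, HNRNPD, HNRNPL and HNRNPUL1 did not pass with the block, and for the difference HNRNPF and HNRNPH3 did not. Deviations of same-numbered libraries of the treatments were nearly uncorrelated (r between -0.06 and 0.09 for SK-N-BE2 pairs, between -0.07 and 0.02 for NGP pairs). Differently numbered pairs gave -0.15 to 0.12 in SK-N-BE2 and -0.09 to 0.09 in NGP. With 3 libraries per group these values cannot show whether same-numbered libraries shared a culture or day, and the labels do not say. SRSF12 passed in NGP under 6 alternatives, HNRNPM under 3 and SRSF3 under 2, beside those that left out a library. HNRNPH1 and HNRNPH3 passed in SK-N-BE2 under DESeq2 and in the joint fit. SRSF2 and SRSF10 passed there under DESeq2, and SRSF4 with upper-quartile factors. The cause of these changes was not tested, beyond the smaller number of samples.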

Other observations

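Ratios of paralogues, per kilobase of exon and without a test, moved in several pairs. HNRNPDL over HNRNPD was 1.07 to 1.19 in SK-N-BE2 controls and 1.62 to 1.64 with STM2457, and 1.25 to 1.39 and 1.42 to 1.59 in NGP. SRSF5 over SRSF6 was 0.53 to 0.623 and 0.668 to 0.735 in SK-N-BE2 and 0.497 to 0.553 and 0.715 to 0.877 in NGP. SRSF4 over SRSF6 was 0.207 to 0.232 and 0.285 to 0.306 in SK-N-BE2 and 0.166 to 0.213 and 0.312 to 0.403 in NGP. These 3 ratios were higher in every treated library of both lines, although SRSF5 fell in SK-N-BE2. HNRNPA3 over HNRNPA1 was 0.131 to 0.163 and 0.235 to 0.248 in SK-N-BE2 but 0.355 to 0.487 and 0.314 to 0.317 in NGP. HNRNPLL over HNRNPL was 0.172 to 0.20 and 0.205 to 0.23 in SK-N-BE2 but 0.353 to 0.441 and 0.284 to 0.296 in NGP.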
